A study of Mus musculus with 4 samples.

Results

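Calpain proteases, their small subunit, their inhibitor and the spectrins they cleave were described at the RNA level in the testes of control and Mps1sKO mice. The members were the rows of the deposited table whose gene symbol was *Capn1*, *Capn2*, *Capn5*, *Capn7*, *Capns1*, *Cast*, *Sptan1*, *Sptb* or *Sptbn1*, which gave 9 of the 55820 loci. All 9 were found, and all 9 passed the filter on low counts along with 20561 tested loci in all. Whole testes were taken at P10 from C57BL/6J males, and 2 libraries were made from each genotype. In Mps1sKO mice a floxed *Mps1* allele was deleted by Cre under the *Stra8* promoter, which is active in spermatogonia and rises up to preleptotene spermatocytes, so the somatic cells of the testis were not targeted. MPS1, a kinase of the spindle assembly checkpoint, is encoded by the gene listed as *Ttk*. The control group is labelled as control only, both groups share the strain, age and tissue, and the labels do not say whether a library came from 1 mouse or from pooled testes, so p-values measure the spread between these libraries.

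Calpains are cysteine proteases that calcium activates, and they cut their substrates at a limited number of sites rather than degrading them. The classical μ-calpain and m-calpain each pair a catalytic subunit, encoded by *Capn1* or *Capn2*, with the common small subunit encoded by *Capns1*, and calpastatin, encoded by *Cast*, is their specific inhibitor. Spectrins are long actin-crosslinking proteins under the plasma membrane, assembled from α and β chains, and the nonerythroid α chain encoded by *Sptan1* is a classical calpain substrate whose cleavage fragments are used as a readout of calpain activity. Protease activity and cleavage are properties of the proteins, and read counts measure neither.

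The libraries held 26819122 and 28607746 counts in control and 23311689 and 27093849 in Mps1sKO. *Ttk* was at 27.9 and 32.6 CPM (counts scaled to library size and TMM factor) in control and at 13.0 and 12.2 in Mps1sKO, a log2 fold change of −1.26 ± 0.13 (SE) with an adjusted p of 0.0461 in edgeR's quasi-likelihood test. Transcripts of germ cells stood lower and those of Sertoli cells, the somatic cells that nurse them, stood higher in the Mps1sKO testes. All 16 meiotic prophase genes had a log2 fold change below 0, and their summed level was 811 and 1053 CPM in control against 675 and 554 in Mps1sKO. All 11 Sertoli genes were above 0, with sums of 6756 and 6908 CPM in control against 8521 and 8169 in Mps1sKO. For 5 of these 11 genes both Mps1sKO libraries stood above both controls. In bulk tissue, a change in the number of cells of a type and a change in RNA per cell cannot be told apart. CPM values are relative to the rest of the library, so they give no amount per testis.

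*Capn1* was the member with the largest fold change and one that the study also measured by quantitative PCR, so the pair of primers it used for this gene shows which part of the transcript that assay read. The capitals mark the bases that lie in exon 12, after the junction with exon 11.

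Capn1 forward primer: ttttgcagtgtaccagGTCCC
Capn1 reverse primer: gcgttggccaggaagaaatc

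The forward primer crosses the junction of exons 11 and 12 and spans chr19:5996786-5997706 on the minus strand (GRCm38), the intron included. The reverse primer lies in exon 13 at chr19:5994838-5994857. The pair encloses 78 bases of transcript, and both primers were found together in 3 transcripts of the GENCODE M21 annotation, each of them a *Capn1* transcript.

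The bases before the transcription start are shown for the catalytic subunits of the classical calpains and for their shared small subunit, since either catalytic subunit assembles with the small one and they differed in level. Each run is the 250 bases before a RefSeq start (GRCm38.p6), read 5′ to 3′ on the gene's own strand. The capitals mark the motif CCAAT (or ATTGG on the other strand) and the GC box GGGCGG (or CCGCCC).

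Capn1 (chr19:6015826-6016075, minus strand): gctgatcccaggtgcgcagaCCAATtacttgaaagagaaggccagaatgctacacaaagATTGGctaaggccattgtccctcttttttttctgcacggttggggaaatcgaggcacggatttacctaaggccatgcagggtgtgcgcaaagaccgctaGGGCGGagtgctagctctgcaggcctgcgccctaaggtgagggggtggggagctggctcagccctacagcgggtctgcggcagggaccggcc
Capn2 (chr1:182517611-182517860, minus strand): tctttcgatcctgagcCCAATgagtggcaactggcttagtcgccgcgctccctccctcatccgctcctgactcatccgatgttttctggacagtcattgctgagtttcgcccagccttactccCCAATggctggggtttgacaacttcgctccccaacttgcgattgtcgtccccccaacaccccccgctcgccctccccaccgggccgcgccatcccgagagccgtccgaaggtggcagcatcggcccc
Capns1 (chr7:30195154-30195403, minus strand): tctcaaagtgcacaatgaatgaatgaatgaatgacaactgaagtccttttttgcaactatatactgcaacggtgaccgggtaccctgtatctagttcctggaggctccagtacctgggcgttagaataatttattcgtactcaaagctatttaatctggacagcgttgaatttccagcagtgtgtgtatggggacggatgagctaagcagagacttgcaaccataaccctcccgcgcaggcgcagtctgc

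RefSeq gives *Capn1* a second start, whose window (chr19:6015248-6015497) held 1 CCAAT motif and 1 GC box and was 60.8% GC. The *Capn1* window shown held 2 CCAAT motifs and 1 GC box, and the *Capn2* window held 2 CCAAT motifs. The *Capns1* window held neither and had the lowest GC content of the 3 shown (46.4%, against 58.8% for *Capn1* and 62.8% for *Capn2*). This *Capns1* window lies inside the annotated span of the gene (chr7:30186936-30198811, minus strand), which begins further upstream. The bases before that outer end were not examined. RefSeq windows matched 8 of the 9 members by symbol, 13 windows in all, and *Capn5* had none. On either strand, CCAAT was found in 6 of the 13 windows (33.8% of all 32851 windows of this length), GGGCGG in 7 of 13 (32.7% of all windows) and the TATA box TATAAA in 0 of 13 (12.4% of all windows). These are matches of letters and not bound sites.

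None of the members passed an adjusted p below 0.05 in edgeR (0 of 9, against 0.0292% of all tested loci). The count was also 0 with DESeq2, where 37 of 15436 loci passed, and with limma-voom, where 3 of 20561 did. With no adjustment, 2 members had a p below 0.05, *Capn1* and *Capn2*, where 9.30% of all loci did. The relaxed cut-offs of the study were a 1.2-fold difference together with p under 0.05 before adjustment. The study used them for its higher genes only, with DESeq2. Here they were applied in both directions, and to the edgeR fit unless another is named. At these cut-offs, 1 member was higher in Mps1sKO (*Capn1*), against a background of 3.09% of loci, and 0 members were lower, against 4.95%. Both Mps1sKO libraries stood above both controls for 4 members (*Capn1*, *Capn2*, *Capn5* and *Sptb*), where 20.3% of loci did so, and below them for 0 members, where 21.1% did. The median log2 fold change of the members was 0.037, with 7 of 9 above 0, beside a median of 0.00027 and 50.1% above 0 over all tested loci. The count of members higher past the relaxed cut-offs was 3 without control replicate 1 (4.43% of all loci in that fit), 2 without Mps1sKO replicate 1 (5.48%), 0 without control replicate 2 (1.49%) and 0 without Mps1sKO replicate 2 (3.34%).

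**Figure D1:**
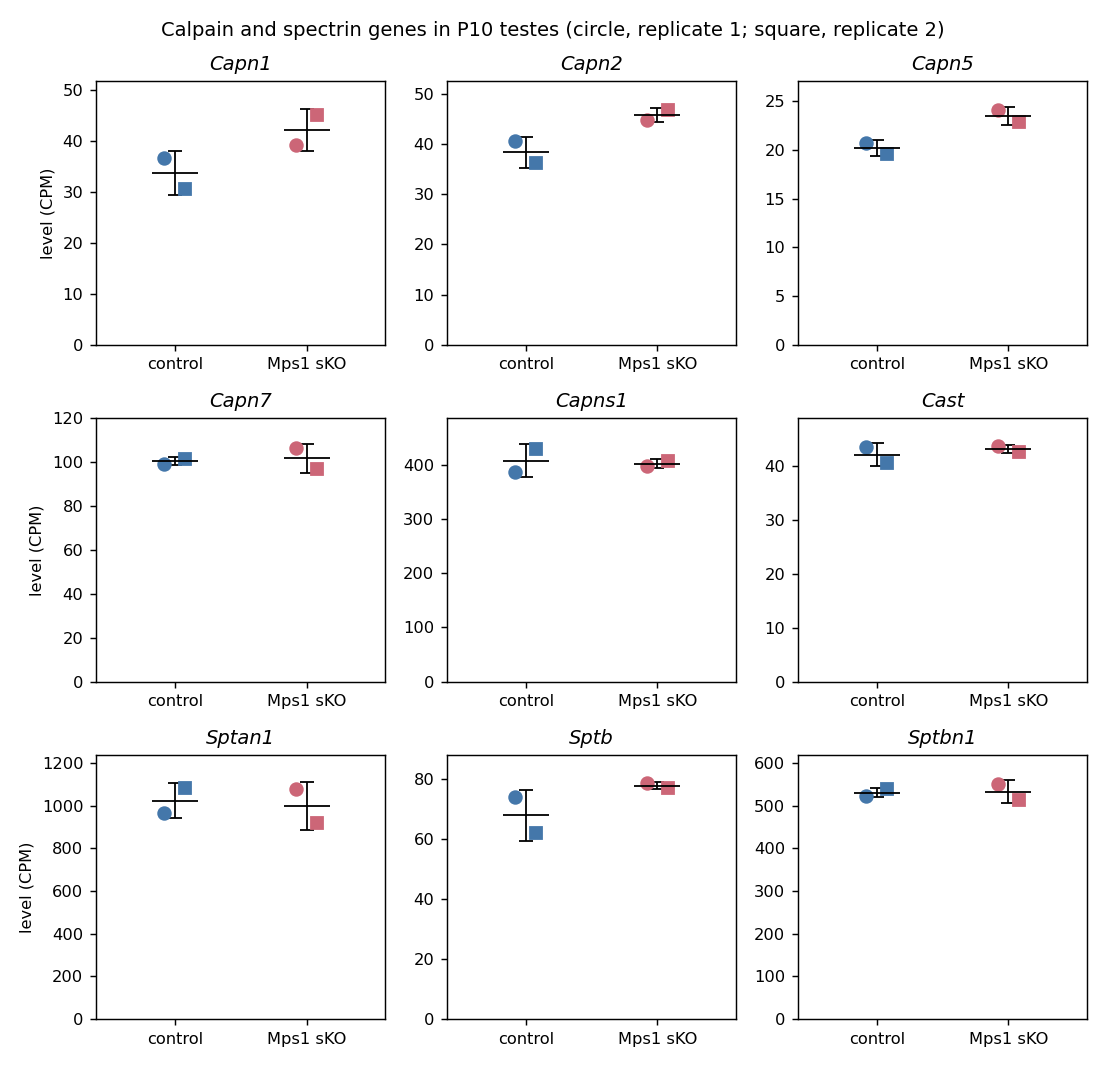
Level of each of the 9 members in every library, in TMM-scaled CPM, with 1 panel per gene and points for the 2 control and 2 Mps1sKO libraries; the bars are the mean ± SD of 2 libraries. The points of the groups are apart for Capn1, Capn2, Capn5 and Sptb and overlap for the other 5 members.

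Among the catalytic subunits, *Capn1*, *Capn2* and *Capn5* were higher in both Mps1sKO libraries and *Capn7* overlapped between genotypes. *Capn1* (ENSMUSG00000024942, chr19:5988545-6015897), the catalytic subunit of μ-calpain, was at 36.8 and 30.7 CPM in control and at 39.2 and 45.0 CPM in Mps1sKO. The groups did not overlap, although control replicate 1 and Mps1sKO replicate 1 stood close together. The mean was 33.7 ± 4.32 CPM (SD, n = 2) in control and 42.1 ± 4.14 CPM in Mps1sKO, a 1.25-fold difference. On the log2 scale the difference was 0.32 ± 0.13 (SE), with a 95% interval of 0.030 to 0.61, an unadjusted p of 0.0347 and an adjusted p of 0.522 by edgeR. *Capn1* was no longer past the relaxed cut-offs without control replicate 2, where the log2 difference was 0.20, or without Mps1sKO replicate 2, where it was 0.22. The edgeR p was then 0.250 and 0.148. The study picked *Capn1* from these libraries for its own assay, so its direction here is not independent evidence. By quantitative PCR of P10 testes, the study reported matching changes for the genes it assayed, *Capn1* among them.

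*Capn2* (ENSMUSG00000026509, chr1:182467260-182517608) encodes the catalytic subunit of m-calpain, which needs more calcium than μ-calpain in the test tube. Its level was 40.6 and 36.2 CPM in control and 44.8 and 46.8 CPM in Mps1sKO. The groups did not overlap, and the Mps1sKO libraries were closer to each other than the controls were. The fold was 1.19, just under the relaxed cut-off of 1.2, and the log2 difference was 0.26 ± 0.10 (SE) with a 95% interval of 0.020 to 0.49, an unadjusted p of 0.0369 and an adjusted p of 0.527 by edgeR. The unadjusted p was 0.295 without control replicate 2, 0.105 without Mps1sKO replicate 2 and 0.0679 with DESeq2 on all 4 libraries.

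*Capn5* (ENSMUSG00000035547, chr7:98121559-98178274) encodes a calpain that lacks the small-subunit-binding domain of the classical enzymes. It was at 20.8 and 19.6 CPM in control and at 24.1 and 22.8 CPM in Mps1sKO. The groups were apart and each pair of libraries lay close together. The log2 difference was 0.22 ± 0.11 (SE), with an interval of −0.041 to 0.48 that includes 0 and an adjusted p of 0.586 by edgeR. *Capn7* (ENSMUSG00000021893, chr14:31336638-31371986), another calpain without that domain, was at 99.1 and 101.7 CPM in control and at 106.6 and 97.2 CPM in Mps1sKO. The Mps1sKO libraries lay on either side of the controls. The log2 difference was 0.021 ± 0.091 (SE), with an interval of −0.19 to 0.23 and an adjusted p of 0.962 by edgeR.

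The small subunit and the inhibitor overlapped between genotypes. *Capns1* (ENSMUSG00000001794, chr7:30186936-30198811), the regulatory subunit that μ-calpain and m-calpain share, was at 385 and 429 CPM in control and at 396 and 407 CPM in Mps1sKO. Both Mps1sKO values lay between the controls, and the log2 difference was −0.020 ± 0.092 (SE; 95% interval −0.23 to 0.19). *Cast* (ENSMUSG00000021585, chr13:74692368-74808810), which encodes calpastatin, was at 43.5 and 40.5 CPM in control and at 43.6 and 42.6 CPM in Mps1sKO. All 4 values of *Cast* fell within a narrow band, and the log2 difference was 0.037 ± 0.095 (SE; 95% interval −0.18 to 0.26). Adjusted p-values by edgeR were 0.967 for *Capns1* and 0.931 for *Cast*.

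Of the spectrins, *Sptb* was higher in both Mps1sKO libraries, while *Sptan1* and *Sptbn1* overlapped between genotypes. *Sptan1* (ENSMUSG00000057738, chr2:29965560-30031451), the nonerythroid α chain, was at 964 and 1083 CPM in control and at 1079 and 920 CPM in Mps1sKO. The highest value was a control and the lowest an Mps1sKO library, so the groups overlapped throughout, and the log2 difference was −0.035 ± 0.11 (SE; 95% interval −0.29 to 0.22). *Sptbn1* (ENSMUSG00000020315, chr11:30099395-30268175), the common nonerythroid β chain that pairs with it, was at 524 and 539 CPM in control and at 552 and 515 CPM in Mps1sKO. Here too the Mps1sKO libraries lay on either side of the controls, and the log2 difference was 0.0054 ± 0.087 (SE; 95% interval −0.20 to 0.21). Adjusted p-values by edgeR were 0.944 and 0.993.

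*Sptb* (ENSMUSG00000021061, chr12:76580488-76710547) encodes the β chain best known from the red blood cell membrane, where it anchors the spectrin network to ankyrin. It was at 73.8 and 61.8 CPM in control and at 78.6 and 77.0 CPM in Mps1sKO. The groups did not overlap, with control replicate 1 nearer to the Mps1sKO libraries than to the other control. The log2 difference was 0.20 ± 0.11 (SE; 95% interval −0.054 to 0.45) with an adjusted p of 0.604 by edgeR, and it was 0.075 without control replicate 2. The red blood cell list had 7 genes, of which 5 were tested, 3 with a log2 difference above 0 and 2 below. Hemoglobin transcripts were present in every library, with 959 to 1514 counts of *Hba-a1* and 506 to 600 of *Hbb-bs*, while the erythrocyte membrane gene *Slc4a1* had at most 6 counts. *Hbb-bs* (log2 difference 0.31, adjusted p = 0.558 by edgeR) and *Alas2* (0.17) were higher in both Mps1sKO libraries. *Hbb-bt* (−0.49, adjusted p = 0.573 by edgeR) and *Hba-a2* (−0.11) were lower in both, and *Hba-a1* overlapped. The summed red blood cell level was 81.4 and 72.7 CPM in control and 77.2 and 88.5 CPM in Mps1sKO, which overlapped. The part of red blood cells in the *Sptb* level was not tested.

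**Figure D2:**
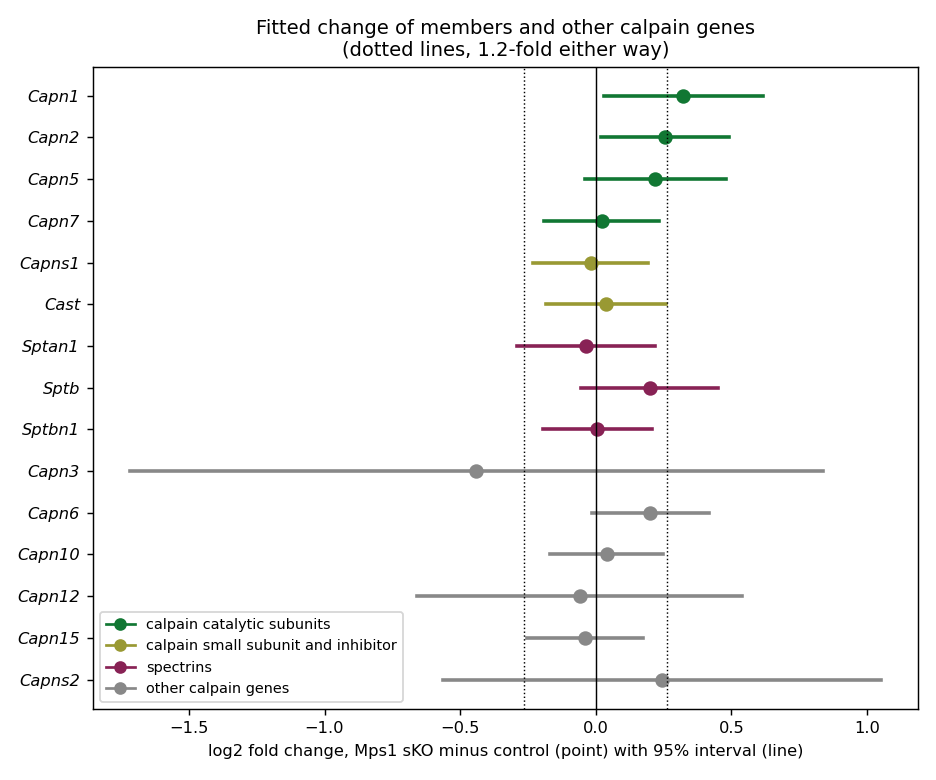
Fitted log2 fold change (Mps1sKO over control) of the members and the other tested calpain genes (points), with 95% intervals derived from the edgeR F test (lines). Colours mark the gene groups, dotted lines mark a 1.2-fold difference and Capn11 is left out. Capn1 and Capn2 are the members whose intervals lie above 0, and the points of Capn7, Capns1, Cast, Sptan1 and Sptbn1 lie near 0.

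Per base of gene length, the members spanned a wide range of levels in these testes. In the FPKM values of the authors, averaged over the 4 libraries, *Capns1* was at 162.4, *Sptan1* at 75.3, *Sptbn1* at 30.3, *Capn7* at 20.6, *Capn1* at 11.3, *Capn2* at 6.60, *Sptb* at 5.96, *Capn5* at 3.96 and *Cast* at 3.69. The RNA of the small subunit was thus far above that of the catalytic subunits it pairs with. The range over libraries of each gene was apart from that of the next, except that *Capn2* overlapped *Sptb* and *Capn5* overlapped *Cast*. Within a library, *Capn2* exceeded *Sptb* in 4 of 4 and *Capn5* exceeded *Cast* in 3 of 4.

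The lower ranks depended on which length was used. The deposited length joins every exon of a gene, which for *Cast* was 11470 bases over 13 annotated transcripts, against 5141 bases for its longest coding transcript. With the longest coding transcript, an alternative chosen after the data were seen, *Cast* was at 8.23 FPKM and moved from rank 9 to 7, and *Capn2* at 13.0 FPKM passed *Capn1* at 12.3. The ranks of *Capns1*, *Sptan1*, *Sptbn1* and *Capn7* were the same by both lengths.

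**Figure D3:**
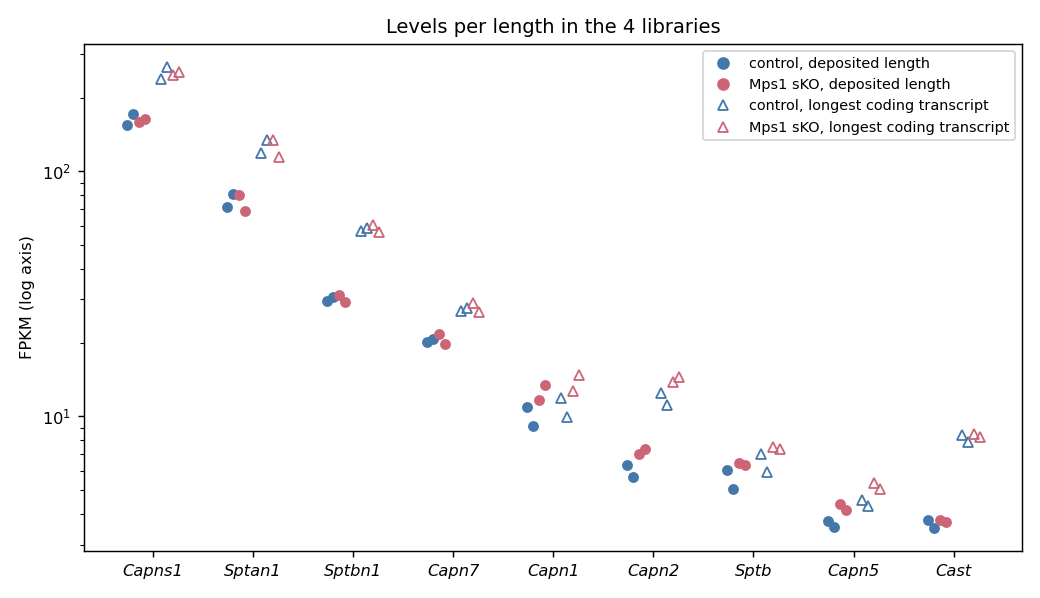
Level of the members in each library in FPKM on a log axis; circles use the deposited gene length and triangles the longest coding transcript, and colours mark the genotype. Capns1 is highest by both lengths, while Cast and Capn2 move up with the shorter length.

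The proportions of subunits, inhibitor and partners within a library were compared next, since such a ratio is free of the library's scaling. The summed FPKM of *Capn1* and *Capn2* was 0.112 and 0.0859 of that of *Capns1* in control and 0.117 and 0.127 of it in Mps1sKO. Both Mps1sKO ratios stood above both controls, a 1.25-fold difference, and the exact two-sided permutation test gave p = 0.333, the smallest p that 2 against 2 libraries allow. Relative to *Cast*, the summed catalytic subunits were at 4.58 and 4.21 in control and at 4.94 and 5.62 in Mps1sKO, again without overlap, with means of 4.40 ± 0.26 and 5.28 ± 0.48 (SD; exact permutation p = 0.333). These ratios hold the same counts of *Capn1* and *Capn2* as the comparisons above and add no separate evidence.

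The proportions within each class overlapped between genotypes. *Capn1* over *Capn2* was 1.72 and 1.61 in control and 1.66 and 1.82 in Mps1sKO, so that *Capn1* was higher per deposited length in all 4 libraries. The β chains *Sptbn1* and *Sptb* together, over the α chain *Sptan1*, were at 0.499 and 0.443 in control and at 0.471 and 0.520 in Mps1sKO. Both comparisons gave p = 0.667 in the exact permutation test.

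**Figure D4:**
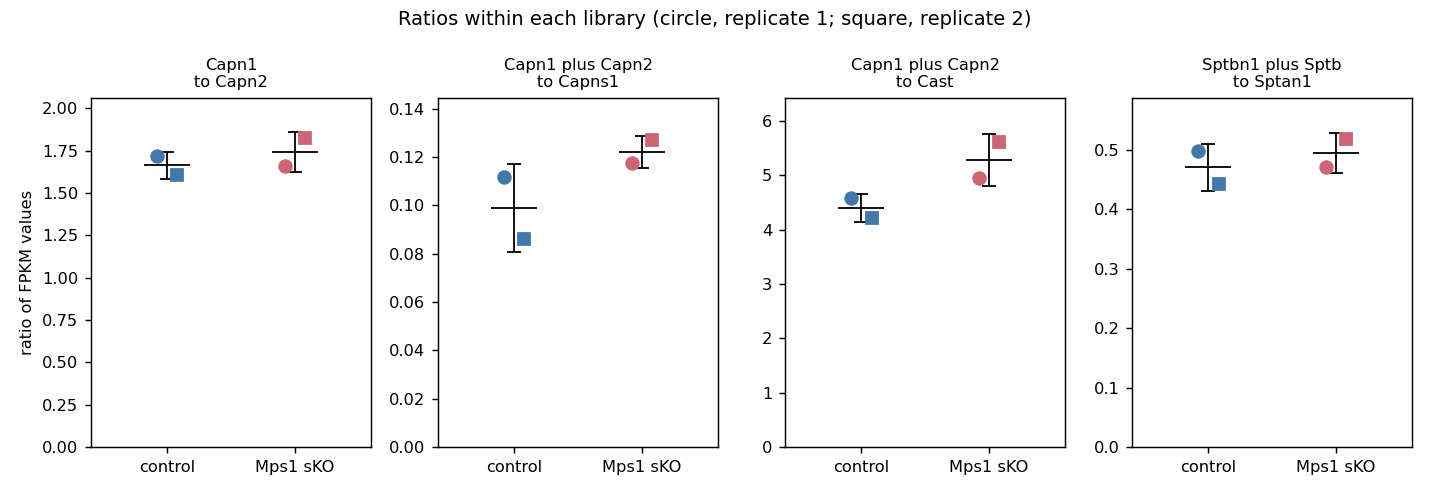
Ratios of summed FPKM between members in each library, with the mean ± SD of 2 libraries per genotype. The ratios of Capn1 plus Capn2 to Capns1 and to Cast are higher in both Mps1sKO libraries, and the other ratios overlap.

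The members that stood higher in Mps1sKO were set beside the marker lists, because those lists differed between the groups. Relative to the control mean, *Capn1* was at 1.09 and 0.909 in the controls and at 1.16 and 1.34 in Mps1sKO. The summed meiotic prophase genes were at 0.870 and 1.13 in the controls and at 0.724 and 0.595 in Mps1sKO. The libraries ranked by *Capn1* or by *Capn2* were in the reverse order of their meiotic prophase level. The share of all tested loci with this order was not counted. Of the Sertoli genes, *Inha*, *Kitl*, *Dhh* and *Aard* had it too, while *Clu* and *Cldn11* did not. *Capn5* and *Sptb* did not have this order, since within Mps1sKO both were higher in replicate 1, which also had the higher meiotic prophase level. The Sertoli sums, given above in CPM, stood higher in both Mps1sKO libraries, as these 4 members did. Within each genotype, the library with the higher Sertoli sum had the lower *Capn1* and *Capn2*. *Capn5* and *Sptb* followed the Sertoli sum within Mps1sKO and ran against it within control. This order of the sum was that of *Clu*, its most abundant gene (2900 and 3586 CPM in control, 4399 and 3319 in Mps1sKO). *Cldn11* was ordered in the same way. *Aard*, the next in level, had the reverse order within each genotype (1690 and 1421 CPM in control, 1728 and 2186 in Mps1sKO), as did most of the other Sertoli genes. Past the relaxed cut-offs were 4 of 11 Sertoli genes (higher: *Inha*, *Kitl*, *Dhh* and *Aard*), 13 of 16 meiotic prophase genes and 8 of 10 germ cell genes (lower). The part of these shifts in the members' levels was not tested.

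The sums of the remaining somatic lists were closer between genotypes. The summed level in Mps1sKO over that in control was 1.00 for the 6 Leydig genes, 0.957 for the 7 peritubular myoid genes, 0.979 for the 7 macrophage genes, 1.07 for the 6 endothelial genes and 1.08 for the 7 red blood cell genes. The sums do not show the direction of single genes. Log2 differences were above 0 for 4 and below 0 for 2 of the Leydig genes. Above and below 0 were 2 and 5 peritubular myoid genes, 1 and 6 macrophage genes, and 5 and 1 endothelial genes. In the edgeR fit, 0 genes of these lists were past the relaxed cut-offs.

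**Figure D5:**
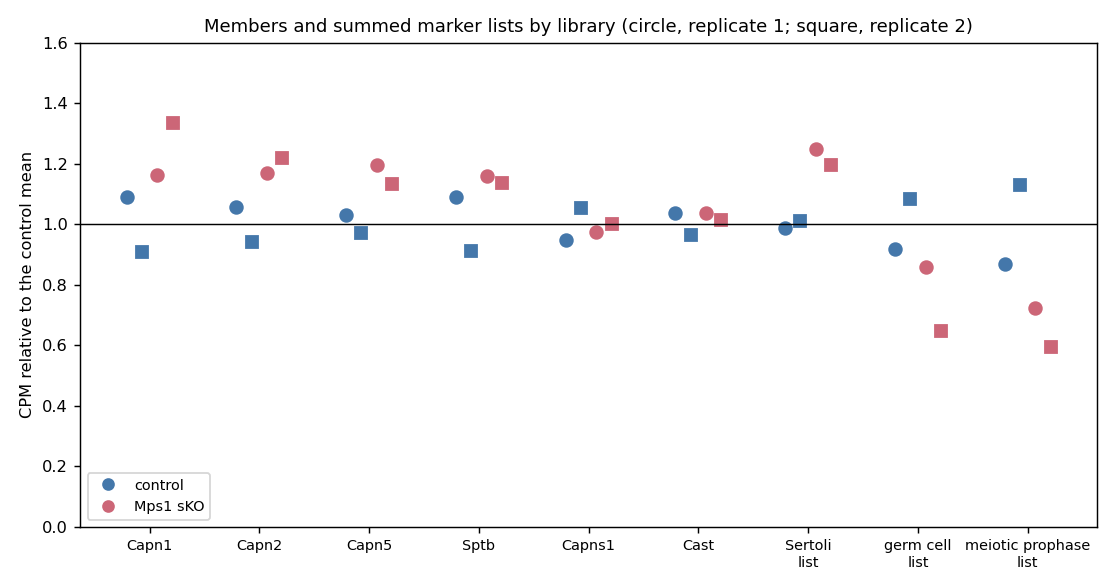
Level in each library relative to the control mean (set to 1) for 6 members and for the summed Sertoli, germ cell and meiotic prophase genes, from TMM-scaled CPM. Capn1, Capn2, Capn5, Sptb and the Sertoli sum lie above 1 in both Mps1sKO libraries, Capns1 and Cast stay near 1, and the germ cell and meiotic prophase sums lie below 1.

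The other 10 calpain genes gave 7 tested loci, of which 0 were higher and 1 was lower past the relaxed cut-offs, and their median log2 fold change was −0.038. *Capn6*, a calpain that lacks the catalytic cysteine, was the most abundant of them, at 175 and 159 CPM in control and at 196 and 188 CPM in Mps1sKO. Its groups did not overlap, and the log2 difference was 0.20 ± 0.092 (SE) with an adjusted p of 0.556 by edgeR. Per deposited length *Capn6* averaged 22.9 FPKM, above *Capn1* and *Capn2*. *Capn10* was apart by a small step, with a log2 difference of 0.041. *Capn13* had no count in any library, which allows up to 0.105 to 0.129 CPM per library (3 counts), and *Capn8* had at most 5 counts. *Capn3*, the calpain of skeletal muscle, had 6 to 15 counts.

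*Capn11*, a calpain of the testis (chr17:45630204-45659325), was the gene past the relaxed cut-offs, and 1 library set its value. The control libraries held 175 and 5 counts of it, and the Mps1sKO libraries 4 and 12. Control replicate 1 stood alone and the other control lay within the Mps1sKO range, so the groups overlapped. The log2 difference of −3.36 ± 1.33 (SE; unadjusted p = 0.0372, adjusted p = 0.527 by edgeR) became 0.85 without control replicate 1. Among 17232 loci with at least 100 counts in all, *Capn11* had the largest ratio of its highest library to the next, 14.5-fold. The neighbouring genes *Slc29a1* (4021 and 4244 counts in control, 3439 and 4090 in Mps1sKO) and *Tmem63b* (1000 to 1125 in control, 944 and 1226 in Mps1sKO) did not stand out in that library. Of 7 late germ cell genes looked up after these values were seen, among them *Prm1* and *Tnp1*, none exceeded 13 counts in any library.

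Genes whose products work with spectrin or are cut by calpain had median fold changes close to 0 as lists. Of 17 membrane skeleton partners, which hold the other β spectrins, ankyrins, adducins, protein 4.1 family members, dematin and tropomodulins, 0 passed the relaxed cut-offs in either direction, with 7 above and 10 below 0 and a median log2 fold change of −0.013. *Add1*, which encodes an adducin that caps actin filaments at the spectrin network, was higher in both Mps1sKO libraries, and *Sptbn4* and *Tmod2* were among those lower in both. Of 10 other known calpain substrates, 0 were higher and 1 was lower past the relaxed cut-offs, and the median was 0.051. That gene was *Cdk5r1*, which encodes the CDK5 activator p35, at 8.80 and 8.63 CPM in control and at 5.83 and 6.20 CPM in Mps1sKO. Its groups were apart, with a log2 difference of −0.54 ± 0.15 (SE; unadjusted p = 0.00893, adjusted p = 0.494 by edgeR).

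Reads of overlapping genes could not be assigned by strand, because the strandedness of the counting is not given in the sources used here. *Capn1* shares 3278 bases of its span with the antisense gene *Gm10814*, which had 58 to 89 counts beside 884 to 1207 for *Capn1*. *Capn7* shares 12107 bases with *Sh3bp5* on the opposite strand, which had 3716 to 5053 counts, and *Cast* shares 834 bases with *Erap1*, which had 1774 to 2121. For the other members, overlapping genes had at most 157 counts, apart from *Plekhg3*, which shares 1 base with *Sptb*.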

How the data were processed

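RNA sequencing of whole testes at P10 gave 4 libraries, 2 per genotype, grouped by the labels. The methods of the study give NEBNext Ultra libraries read in pairs on an Illumina NovaSeq. The submitters' processing notes list HISAT2 2.0.5, featureCounts, DESeq2 1.16.1 and mm10, and the annotation and strandedness are not given in the sources used here. The authors deposited 1 table with raw counts per gene and FPKM values. Of 55536 annotated genes, 55450 had the same start and end in GENCODE M21 (GRCm38).

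Counts were tested with edgeR 4.0.16 (R 4.3.3): filterByExpr, TMM, the quasi-likelihood F test on genotype and Benjamini-Hochberg adjustment over 20561 loci. The common biological coefficient of variation was 0.106. FPKM values were used for levels between genes and for ratios, with exact permutation tests. Confidence intervals of fold changes are those of the fit. The alternatives were DESeq2 1.42.0, limma-voom (limma 3.58.1), other scalings and filters, the replicate number as a block and each library left out. The scripts were tested on simulated data. A floor of 3 counts covers counting error only.

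The members, the gene lists and the tests were chosen with earlier results of these data known. Named genes were the 9 members, *Ttk*, and at most 6 genes per list by smallest p among those past the relaxed cut-offs, plus the highest in level where levels are compared. *Capn3*, *Capn8*, *Capn10*, *Capn13*, *Add1*, *Sptbn4*, *Tmod2*, *Slc4a1*, *Hba-a1*, *Hba-a2*, *Hbb-bs*, *Hbb-bt*, *Alas2*, *Clu*, *Cldn11*, the neighbours of *Capn11* and genes overlapping the members were named after their values were seen. Promoter windows are from RefSeq (GRCm38.p6) and primers from the study's list of oligonucleotides.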

Additional observations from a re-analysis of the deposited data

How the results depend on the processing

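No member passed an adjusted p below 0.05 under any alternative run on all 4 libraries. Few loci did so in most of these fits, from 2 of 20561 with the replicate block to 390 of 35262 with no filter on low counts, the crossed block below aside. *Capn1* was past the relaxed cut-offs with DESeq2, limma-voom, the DESeq2 size factors, library size only and both other filters. The number of members past them was 0 with the replicate block, where 1.72% of all loci were higher past them against 3.09% without it. It was 0 to 3 when 1 library was left out (1.49% to 5.48% of all loci). The number of members whose groups did not overlap was then 5 to 7 of 9 (63.3% to 76.3% of all loci), beside 4 of 9 with all libraries (41.4%), since fewer libraries leave fewer chances to overlap. Deviations of same-numbered libraries from their group means had a correlation of −0.19 over loci. With 2 libraries per group this is a single value, so it cannot decide whether the numbers mark a pairing. Under the block, *Capn1* had a log2 difference of 0.32 and an edgeR p of 0.0754. Blocking on crossed numbers, an alternative chosen after seeing the data, left 1 member past the cut-offs, where 4.61% of all loci were higher past them. In that fit 550 of 20561 loci passed an adjusted p below 0.05 in edgeR, and 0 members did.

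Signs turned for members near 0. With 1 library left out in turn, log2 differences ranged from −0.047 to 0.088 for *Capn7*, −0.097 to 0.059 for *Capns1*, −0.016 to 0.087 for *Cast*, −0.15 to 0.076 for *Sptan1* and −0.046 to 0.056 for *Sptbn1*. *Sptbn1* was at −0.016 with library size only and at −0.00098 with at least 10 counts in every library. *Capn2* passed the relaxed cut-offs at 0.34 without control replicate 1 and 0.29 without Mps1sKO replicate 1, and *Sptb* at 0.33 without control replicate 1. Of 99 member values under alternatives, 84 kept their direction and their side of the cut-offs. The members had at least 559 counts in every library, and 2 libraries per group limit their precision. The causes of these shifts were not tested.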
